A study of Mus musculus with 22 samples.

Results

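The nuclear genes of oxidative phosphorylation were taken as the protein-coding mouse genes whose symbol begins with Nduf, Uqcr, Atp5 or Cox4 to Cox8, together with Sdha, Sdhb, Sdhc and Sdhd. This gave 94 gene records, under 93 symbols, of the 21702 protein-coding genes and 47311 genes with a transcript in the tables. They comprise 36 subunits of complex I, 8 assembly factors of complex I (the Ndufaf genes), the 4 subunits of complex II, 8 genes of complex III, 20 of complex IV and 18 of complex V. Ndufa4, which is built into complex IV despite its name, and its paralog Ndufa4l2 were counted with complex IV.

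RNA-seq was performed on 22 libraries of FACS-sorted bone marrow cells from C57BL/6 mice. KO mice were Arid1a f/f;Mx1-Cre+ and WT mice were Arid1a f/f;Mx1-Cre-, so the controls carried the same floxed allele, and both genotypes had received 5 doses of poly(I:C) from 8 to 14 weeks of age and were analysed 4 weeks later. Mx1-Cre is an interferon-inducible transgene that poly(I:C) switches on, and it removes exon 9 of Arid1a in many interferon-responsive cells rather than in blood cells alone. Long-term hematopoietic stem cells (LT-HSCs) came from 2 WT and 2 KO mice. Common myeloid (CMP), granulocyte-macrophage (GMP) and megakaryocyte-erythroid (MEP) progenitors came from 3 other WT mice (300, 305 and 309) and 3 other KO mice (301, 304 and 308), each of which gave all 3 populations. The replicates are separate mice. LT-HSC libraries were prepared by an ultra-low-input method, and progenitor libraries with a poly-A kit that does not keep the strand.

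Oxidative phosphorylation takes place in the inner mitochondrial membrane. Complex I passes electrons from NADH and complex II from succinate to coenzyme Q, complex III moves them on to cytochrome c, and complex IV reduces oxygen, while ATP synthase (complex V) uses the proton gradient built by complexes I, III and IV. Mitochondrial DNA encodes a small set of core subunits, and the nucleus encodes the remaining subunits, among them every subunit of complex II. Erythroid precursors are known to be rich in mitochondria, where part of heme synthesis takes place, whereas resting stem cells are known for a low use of respiration.

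Totals ranged from 40804031 to 65930737 estimated counts on genes per library. The 13 subunits encoded by mitochondrial DNA have no transcript in the tables and are not analysed here. Arid1a, of which 1 exon is deleted, was lower in every KO library than in every WT library of the same population, with a log2 fold change of -1.14 ± 0.27 (SE, adjusted p = 0.423) in LT-HSCs, -0.22 ± 0.06 (adjusted p = 0.0284) in CMPs, -0.40 ± 0.11 (adjusted p = 0.0246) in GMPs and -0.14 ± 0.05 (adjusted p = 0.0836) in MEPs. Mice 304 (KO) and 305 (WT) stood apart from the other 4 progenitor mice in transcripts of 4 Y-linked genes, which summed to 0.69 to 1.78 TPM (a share of all transcripts, scaled for transcript length) against 83.4 to 126 TPM. The summed TPM of the 94 genes lay at 21102 to 21212 in the CMPs of mice 304 and 305 and at 18519 to 20042 in the CMPs of the other mice, while in GMPs it lay at 17643 to 18418 against 19337 to 21207. The GMP and MEP markers followed the sorted progenitor populations. The GMP list summed to 31378 to 36925 TPM in WT GMPs, 3958 to 4814 in WT CMPs and 27 to 61.5 in WT MEPs. The MEP and erythroid list summed to 4893 to 6015 TPM in WT MEPs, 968 to 1082 in WT CMPs and 125 to 191 in WT GMPs. The LT-HSC list summed to 611 to 802 TPM in WT LT-HSCs and 109 to 144 in WT CMPs. The WT LT-HSC libraries also held 3206 to 3533 TPM of the MEP and erythroid list, above WT CMPs, and 643 to 1422 TPM of the GMP list. What cells or RNA gave these sums was not tested. Results without both mice 304 and 305 are given where they move. In such bulk samples fewer cells of a type and less RNA per cell cannot be told apart.

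Promoters were searched because many of these genes are known targets of the activators NRF1 and GABP (an ETS factor) and of YY1. RefSeq (GRCm38.p6) held a window of 300 bases around the start for 74 of the 94 genes, in 79 windows. The NRF1 motif GCGCATGCG, read on both strands, was found in 12.7% of the windows of these genes, in 1.75% of all 32851 windows and in 3.25% of the 14666 windows of tested genes. CCGGAAG, the ETS motif, was found in 22.8%, 8.86% and 16.1%, and AAGATGGC, the YY1 motif, in 12.7%, 2.75% and 4.07%. The erythroid GATA motif AGATAA was found in 7.59%, 11.2% and 7.16%, CCAAT in 43%, 37.4% and 37.5%, and TATAAA in 10.1%, 13.6% and 7.64%. An NRF1, ETS or YY1 motif stood in 40.5% of the windows of these genes and in 21.7% of those of tested genes. Motifs may overlap one another, and a match describes letters and not a bound site.

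Printed below are 250 bases before and 30 bases after the RefSeq start, 5′ to 3′ on the strand of the gene, for 5 genes on which the comparisons turn. Cox6b1 (chr7:30626085-30626364, minus strand) and Cox6b2 (chr7:4753065-4753344, minus strand) encode alternative forms of 1 subunit and differed in their response, Uqcr11 (chr10:80406792-80407071, minus strand) and Sdhb (chr4:140961021-140961300, plus strand) were among the genes that differed most between populations, and Cox7a2l (chr17:83514304-83514583, minus strand) did not rise with the others. Capitals mark the motifs named above.
Cox6b1: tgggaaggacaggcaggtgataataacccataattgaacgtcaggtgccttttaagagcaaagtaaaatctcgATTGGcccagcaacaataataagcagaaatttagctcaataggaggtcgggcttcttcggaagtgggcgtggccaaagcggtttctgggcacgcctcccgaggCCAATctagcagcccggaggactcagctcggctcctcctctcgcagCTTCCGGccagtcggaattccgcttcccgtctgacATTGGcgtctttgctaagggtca
Cox6b2: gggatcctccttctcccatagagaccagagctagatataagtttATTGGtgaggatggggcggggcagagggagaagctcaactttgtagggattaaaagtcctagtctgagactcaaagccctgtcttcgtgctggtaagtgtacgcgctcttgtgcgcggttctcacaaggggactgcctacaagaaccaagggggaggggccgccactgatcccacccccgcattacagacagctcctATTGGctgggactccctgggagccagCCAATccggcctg
Uqcr11: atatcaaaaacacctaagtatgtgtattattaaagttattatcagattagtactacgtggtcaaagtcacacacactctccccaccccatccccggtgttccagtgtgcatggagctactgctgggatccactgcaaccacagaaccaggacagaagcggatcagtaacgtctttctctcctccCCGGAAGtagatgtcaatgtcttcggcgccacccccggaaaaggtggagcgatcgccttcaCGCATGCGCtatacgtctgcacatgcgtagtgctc
Sdhb: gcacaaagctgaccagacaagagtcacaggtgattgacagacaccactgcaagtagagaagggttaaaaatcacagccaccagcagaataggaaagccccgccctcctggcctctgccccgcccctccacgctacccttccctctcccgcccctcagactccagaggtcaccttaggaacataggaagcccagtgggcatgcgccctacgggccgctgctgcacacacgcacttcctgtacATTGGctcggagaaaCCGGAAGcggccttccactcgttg
Cox7a2l: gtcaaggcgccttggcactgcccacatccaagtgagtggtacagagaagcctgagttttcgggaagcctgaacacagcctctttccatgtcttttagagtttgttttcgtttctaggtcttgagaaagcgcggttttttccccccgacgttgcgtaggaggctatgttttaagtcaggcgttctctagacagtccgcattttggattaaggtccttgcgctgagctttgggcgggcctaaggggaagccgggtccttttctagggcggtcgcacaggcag
Cox6b1 held an ETS motif and 3 CCAAT boxes, and Cox6b2 held 3 CCAAT boxes with none of the NRF1, ETS and YY1 letters. Uqcr11 held an ETS and an NRF1 motif, Sdhb an ETS motif and a CCAAT box, and Cox7a2l none of the motifs.

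The level of the whole group was first compared between populations. Summed over the 94 genes, WT CMPs held 18519, 19049 and 21212 TPM, WT GMPs 18418, 19456 and 21207 TPM, and WT MEPs 27428, 28542 and 28783 TPM. Every WT MEP library therefore lay above every CMP and GMP library, whereas CMPs and GMPs overlapped. The mean sum in MEPs was 1.44 times that in CMPs and 1.43 times that in GMPs, and the ratio of MEPs to CMPs ran from 1.39 for complex IV to 1.58 for complex III. WT LT-HSCs held 30785 and 38051 TPM, but their libraries were made with another kit, and the kit and the population cannot be told apart. By mean TPM in WT MEPs the highest genes were Atp5b (1889 ± 121 TPM, SD, n = 3), the catalytic subunit of ATP synthase, and Atp5g3 (1010 ± 12.6 TPM), which encodes its membrane ring.

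**Figure D1:**
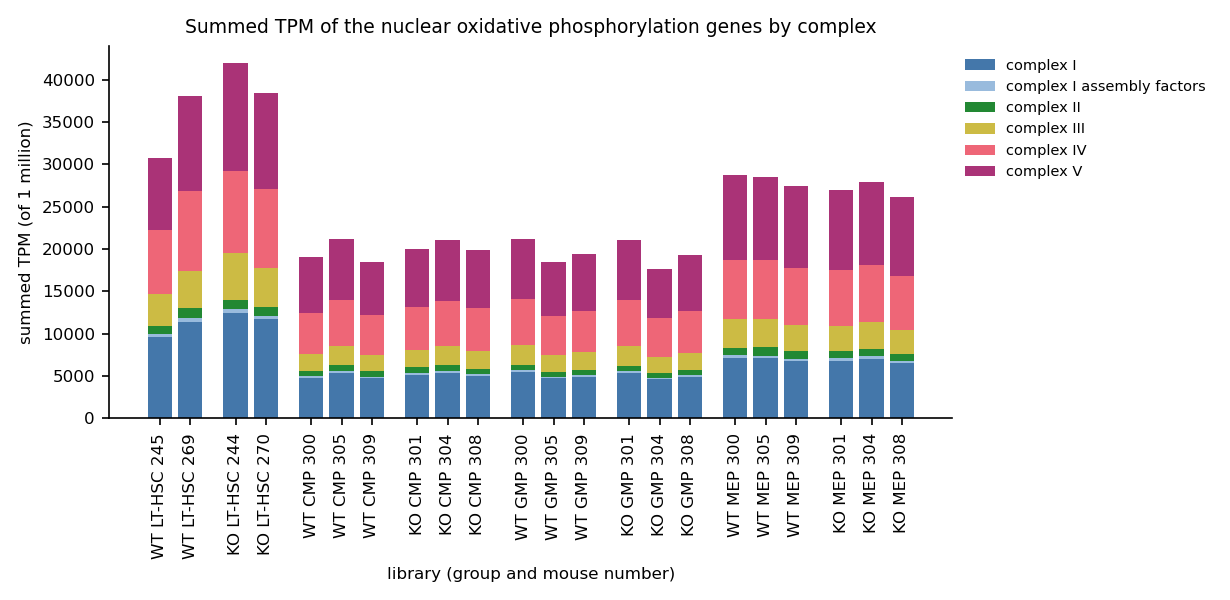
Summed TPM of the genes in each library (1 bar per mouse and population), stacked by complex, on a linear axis from 0. The 6 MEP bars reach 26143 to 28783 TPM and stand above all 12 CMP and GMP bars, and the 4 LT-HSC bars, from another library kit, are the tallest.

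In WT mice, genes of every complex were higher in MEPs than in CMPs. With edgeR's quasi-likelihood test and the mouse as a block, 85 of the 89 genes tested were higher in MEPs and 3 were lower (adjusted p under 0.1), against 34.4% of all 17476 genes tested called higher and 38% called lower. The median log2 fold change was 0.80 over these genes and -0.04 over all genes. All 36 tested genes of complex I, 8 of complex I assembly, 4 of complex II, 8 of complex III and 17 of complex V were higher, with medians from 0.76 for complexes V and I assembly to 1.01 for complex III. Complex IV was mixed, with 12 of 16 genes higher and 3 lower.

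Against WT GMPs, 81 genes were higher in MEPs and 3 lower, beside 36.1% and 36.5% of all genes, with a median log2 fold change of 0.65 (all genes -0.02). The genes without a call in that comparison were Ndufa13, Ndufb7, Ndufb11, Ndufv3 and Cox7a2l, the first 4 of which belong to complex I. All 18 subunits listed as catalytic or core were higher in MEPs than in CMPs (by at least 0.431 on the log2 scale) and than in GMPs (by at least 0.315). For complex IV that list holds Cox4i1 and Cox5a only, as its subunits encoded by mitochondrial DNA are not analysed here. The 2 comparisons share the MEP libraries. Scaling by library totals in place of TMM, chosen after seeing the data, moved the median of all genes to -0.24 and that of these genes to 0.60 for MEPs against CMPs. Under it 80 genes were higher and 4 lower, beside 4643 and 8003 of all 17476 genes, and 36.7% of the calls over all genes were higher.

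**Figure D2:**
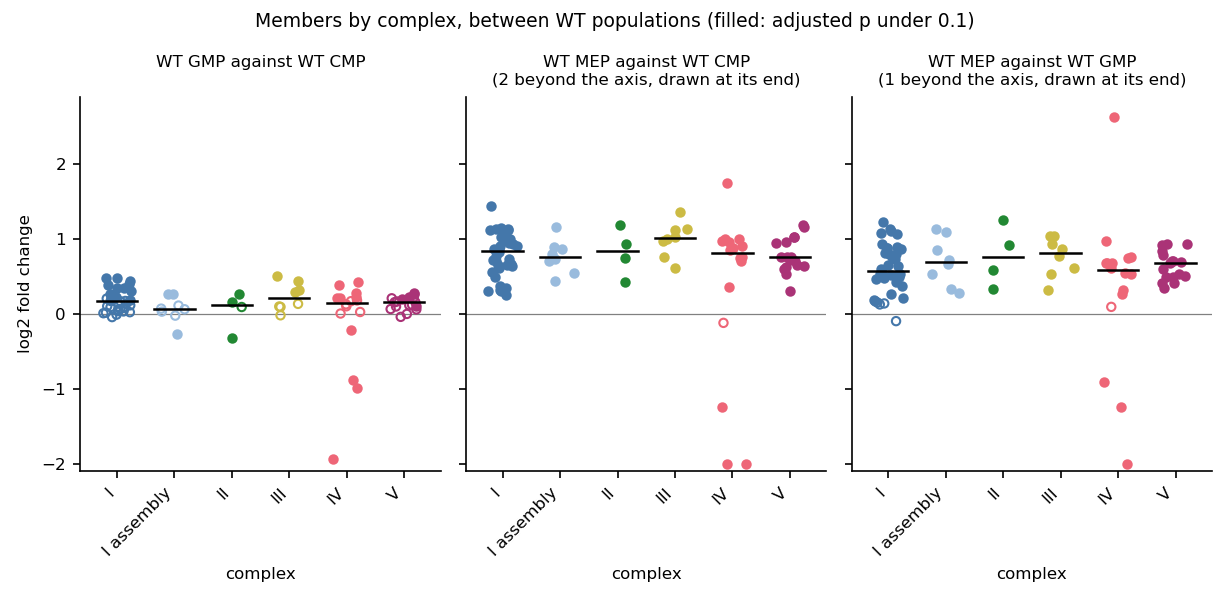
Log2 fold change of each gene by complex in the 3 comparisons of WT populations, with filled points for adjusted p under 0.1 and bars at the medians. Nearly all points lie above 0 in both MEP comparisons, and the lowest points belong to complex IV.

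Uqcr11, a small subunit of complex III, and Ndufa5, a subunit of complex I, had among the largest rises. Levels are given below in CPM, a share of the counts of a library after TMM scaling with no correction for length. Those of Uqcr11 were 50.4, 63.2 and 51.6 in the CMPs of mice 300, 305 and 309 and 147, 146 and 129 in their MEPs. Every mouse had a higher value in MEPs, and the log2 fold change was 1.35 ± 0.11 (SE, adjusted p = 5.62e-06). Ndufa5 had 18.2, 24.9 and 18.5 CPM in CMPs, 24.4, 22.9 and 24.1 CPM in GMPs and 54.6, 56.7 and 55.1 CPM in MEPs. The MEP values lay above both other populations, with log2 fold changes of 1.44 ± 0.10 (adjusted p = 3.17e-06) against CMPs and 1.22 ± 0.10 (adjusted p = 7.72e-06) against GMPs.

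The subunits of complex II, which link the citric acid cycle to the respiratory chain, did not move by one factor. Sdhb, its iron-sulfur subunit (ENSMUSG00000009863, chr4:140961203-140979193, plus strand), had 93.4, 102 and 97.6 CPM in CMPs, 79.8, 73.3 and 82.2 CPM in GMPs and 192, 186 and 183 CPM in MEPs. The 3 populations did not overlap, with GMPs lowest. Its log2 fold change was 0.93 ± 0.06 (adjusted p = 2.24e-06) for MEPs against CMPs, 1.25 ± 0.06 (adjusted p = 3.23e-07) for MEPs against GMPs and -0.32 ± 0.06 (adjusted p = 0.00409) for GMPs against CMPs. Sdhd, a membrane anchor, was higher in MEPs than in CMPs by 1.181 ± 0.08 on the log2 scale (adjusted p = 1.54e-06), and Sdha, the flavoprotein, by 0.43 ± 0.05 (adjusted p = 3.33e-05).

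Between GMPs and CMPs the differences were smaller. In WT mice 32 genes were higher in GMPs and 6 were lower, beside 21% and 24.2% of all genes, with a median log2 fold change of 0.16 (all genes -0.01). Uqcrq, which encodes a subunit of complex III, had 48, 55.9 and 45.1 CPM in CMPs against 74.9, 65.8 and 69.3 CPM in GMPs, without overlap (0.50 ± 0.09, adjusted p = 0.00189). Ndufa1 (0.48 ± 0.08, adjusted p = 0.00158) and Ndufb3 (0.48 ± 0.08, adjusted p = 0.002), membrane subunits of complex I, followed. The genes lower in GMPs were Cox6a2, Cox4i2, Cox6b2, Sdhb, Ndufaf7 and Cox7a2l. The count of genes higher was 9 of 89 without mouse 309, beside 2341 of all 17873 genes. It was 10 of 89 without mouse 300 (2919 of 17371) and 74 of 89 without mouse 305 (4349 of 17850). By library totals the count higher was 12 of 89, beside 2470 of 17476, with 8 lower and a median of 0.02 (all genes -0.15). The share higher thus lay below that of all genes without mouse 300 or 309 and by library totals. The summed TPM of GMPs was 1.01 times that of CMPs.

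Complex IV has several subunits with alternative forms, and these forms made up its exceptions. Cox6b2, known as the testis form of a complex IV subunit that faces the intermembrane space, had 38.8, 38.3 and 42.9 CPM in WT CMPs, 21.6, 17.6 and 27.4 CPM in GMPs and 138, 110 and 159 CPM in MEPs. The populations did not overlap, and MEPs exceeded CMPs by 1.75 ± 0.09 (adjusted p = 4.81e-07) and GMPs by 2.62 ± 0.09 on the log2 scale (adjusted p = 3.95e-08), the largest rise in both comparisons. Its common form Cox6b1 rose by 0.86 ± 0.08 (adjusted p = 1.16e-05) from CMPs to MEPs. Cox6b2 accounted for 28.7 ± 2.04% (SD, n = 3) of the TPM of both forms in WT CMPs, 16.6 ± 2.33% in GMPs and 44 ± 4.33% in MEPs. In the progenitor groups only 53.8% to 61.2% of the TPM of Cox6b2 fell on its 7 protein-coding transcripts of 9, and its highest transcript there was a retained intron.

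Cox4i2, the form of subunit 4 known from lung and low oxygen, was found at 46 to 69 counts in WT CMPs, 20 to 39 in WT GMPs and 0 in each WT MEP library. Against a floor of 3 counts per library, it was at least 14.2-fold lower in MEPs than in CMPs and at least 7.53-fold lower than in GMPs. Cox6a2, the heart and muscle form of subunit 6a, had 1.19, 1.55 and 1.85 CPM in WT CMPs, 0.406, 0.31 and 0.493 CPM in GMPs and 0.227, 0.1 and 0.326 CPM in MEPs. It was lower in GMPs (-1.93 ± 0.32, adjusted p = 0.0015) and in MEPs (-2.82 ± 0.35, adjusted p = 9.68e-05) than in CMPs, and lies wholly within Itgad on the opposite strand. In annotated transcripts 6.15% of the 31-base stretches of Cox6a2 occur in Itgad, and what unspliced Itgad RNA adds was not tested. Itgad had 0.08 ± 0.37 (adjusted p = 0.889) for GMPs against CMPs and -4.16 ± 0.57 (adjusted p = 0.000184) for MEPs against CMPs.

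Cox7a2l, which is known to help join complexes III and IV into supercomplexes, had 170, 173 and 171 CPM in WT CMPs and 166, 149 and 158 CPM in MEPs. The MEP values lay below the CMP values, but the gene was not called (-0.12 ± 0.07, adjusted p = 0.165), and the 95% interval of the difference ran from -0.25 to 0.02. The related Cox7a2, a common complex IV subunit, rose by 1.0 ± 0.10 (adjusted p = 2.25e-05), so that its share of the TPM of Cox7a1, Cox7a2 and Cox7a2l was 33.5 ± 2.05% in CMPs, 43.3 ± 0.56% in GMPs and 52.3 ± 2.28% in MEPs. Cox7a1, the muscle form, had 22 to 24 counts in WT CMPs and 4 to 16 in MEPs, and was called lower in MEPs (-1.23 ± 0.49, adjusted p = 0.0529) with overlapping CPM.

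**Figure D3:**
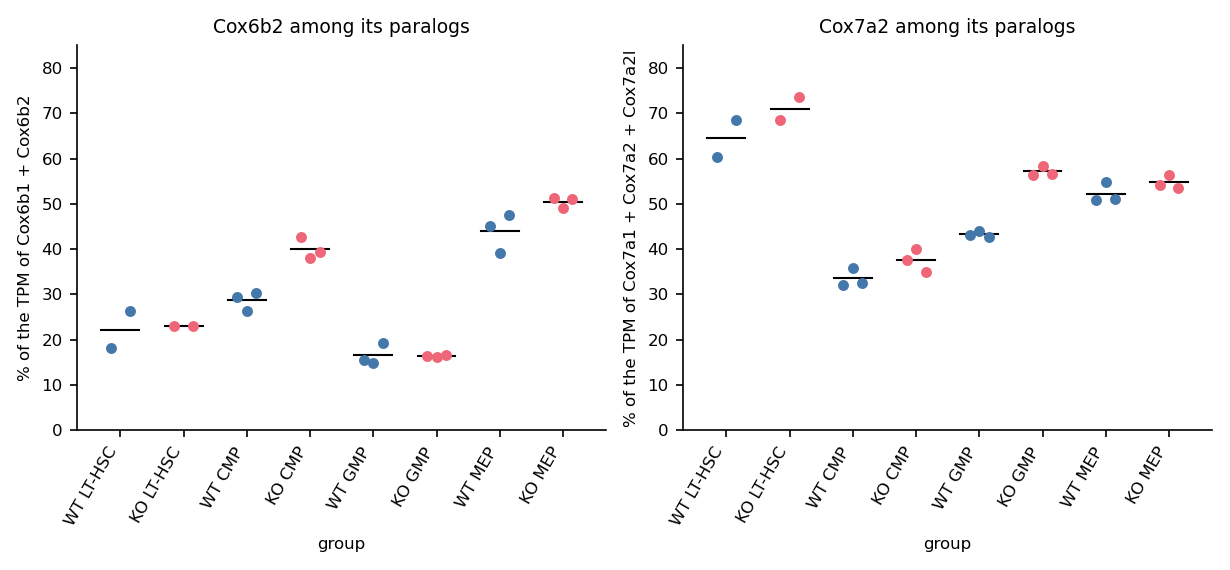
Share of Cox6b2 in the TPM of Cox6b1 and Cox6b2 (left), and of Cox7a2 in the TPM of Cox7a1, Cox7a2 and Cox7a2l (right), with 1 point per library (blue WT, red KO) and bars at the means. KO CMPs lie at 38% to 42.7% for Cox6b2 against 26.4% to 30.3% in WT, and KO GMPs at 56.5% to 58.3% for Cox7a2 against 42.8% to 43.9% in WT.

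How alike the genes behaved was described over the 18 progenitor libraries, which share mice and depth. Spearman's correlation of each gene's TPM with the summed TPM of the other genes had a median of 0.86 over 89 genes and lay above 0.7 in 66. Atp5o (0.98) and Uqcr10 (0.98) were closest to the rest. Cox4i2 (-0.63), Cox7a1 (-0.62), Cox6a2 (-0.50) and Cox7a2l (-0.05) fell below 0. Genes with an NRF1, ETS or YY1 motif in the window had a median log2 fold change of 0.76 for MEPs against CMPs (32 genes), and those without one 0.87 (40 genes).

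Loss of ARID1A was then examined within each population. In LT-HSCs none of 90 genes tested was called in either direction by edgeR or DESeq2, beside 0.0264% of all 22733 genes called higher and 0.0528% lower by edgeR. At an unadjusted p under 0.05 there were 3 of these genes and 1180 of all genes. Their sum was 30785 and 38051 TPM in WT and 41943 and 38483 TPM in KO LT-HSCs, and their median log2 fold change was 0.38, beside -0.16 over all genes. Without the WT library of 38051 TPM, where the lone WT library left is assumed to vary like the KO libraries, 44 of 91 genes were called higher (48.4%, against 5.76% of all 27479 genes in that fit), with a median of 0.66, and without the other WT library none was called and the median was 0.17. Neutrophil markers summed to 430 to 2232 TPM in WT and 309 to 359 TPM in KO LT-HSCs, and their part in the result was not tested.

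In MEPs most calls ran downwards, by small amounts. Of 88 genes tested 22 were lower and 1 was higher, beside 15.4% of all 15777 genes called lower and 14% called higher. The median log2 fold change was -0.07 (all genes -0.002), and 14 genes had a positive value. The lower genes were 5 of 8 in complex III (Uqcr10, Uqcr11, Uqcrc1, Uqcrfs1 and Uqcrh), 2 of 4 in complex II, 5 of 15 in complex IV, 6 of 36 in complex I, 3 of 17 in complex V and 1 of 8 assembly factors. In all 23 called genes the KO and WT libraries did not overlap, which a call with 3 mice per genotype itself makes likely. The share without overlap over all genes is not given here. None of the 23 genes changed by more than 0.471 on the log2 scale. The summed TPM was 26143, 26949 and 27905 in KO MEPs against 27428, 28542 and 28783 in WT MEPs, which overlapped.

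Sdhb differed most. It had 129, 127 and 125 CPM in KO MEPs (mice 301, 304 and 308) and 179, 175 and 175 CPM in WT MEPs (mice 300, 305 and 309). The groups were far apart relative to their spread, and the log2 fold change was -0.47 ± 0.04 (adjusted p = 0.000207), with a range of -0.48 to -0.46 when any mouse was left out. The other subunits of complex II were closer to WT, as Sdhd fell by 0.13 ± 0.05 on the log2 scale (adjusted p = 0.0852), Sdhc had -0.10 ± 0.06 (adjusted p = 0.315) and Sdha -0.02 ± 0.04 (adjusted p = 0.833). In CMPs Sdhb had 89.4, 96.4 and 92.8 CPM in KO and 101, 112 and 107 CPM in WT mice, again without overlap (-0.20 ± 0.06, adjusted p = 0.042, but 0.156 without mouse 301 and 0.125 without mouse 309). In GMPs it had 67.9, 61 and 68.2 CPM in KO and 76.7, 68.5 and 77.8 CPM in WT mice and was not called (-0.18 ± 0.08, adjusted p = 0.118).

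Atp5d, the delta subunit of the ATP synthase stalk, had 152, 162 and 154 CPM in KO MEPs and 214, 232 and 189 CPM in WT MEPs. The groups did not overlap (-0.44 ± 0.07, adjusted p = 0.00421). It shares 2204 bases with Cbarp on the opposite strand, which had 164 to 190 counts in KO and 253 to 470 in WT MEPs and fell by 1.02 ± 0.16 on the log2 scale (adjusted p = 0.00337). Cbarp reached at most 9.04 TPM in MEPs and Atp5d at least 254.8 TPM, and 2.23% of the 31-base stretches of Atp5d occur in transcripts of Cbarp. Cox8a, a small subunit of complex IV, fell from 260, 264 and 228 CPM in WT to 201, 218 and 196 CPM in KO MEPs (-0.29 ± 0.07, adjusted p = 0.0184). Cox6a1, the common form of subunit 6a, fell by 0.26 ± 0.07 (adjusted p = 0.0332), with adjusted p of 0.105 without mouse 300 and 0.133 without mouse 301. Atp5g2, of the ATP synthase ring, also fell (-0.28 ± 0.10, adjusted p = 0.0977), a call that was lost without mouse 300, 301, 304, 308 or 309 (adjusted p from 0.117 to 0.276), and 40.2% of its 31-base stretches occur in other transcripts.

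Ndufa5 was the gene that was higher in KO MEPs, with 56.9, 61.5 and 58 CPM against 50.9, 53.2 and 52.7 CPM in WT MEPs (0.17 ± 0.05, adjusted p = 0.0533, but 0.162 without mouse 300, 0.175 without mouse 304 and 0.113 without mouse 308). Of the 18 core subunits 6 were lower and none was higher in KO MEPs. The count of lower genes was 5 without mouse 301 (5.68%, against 9.65% of all genes), 8 without mouse 300 (9.09% against 11%), 13 without mouse 308 (14.8% against 12.2%) and 14 without mouse 304 (15.9% against 11.6%), so that without mouse 300 or 301 the share lay below that of all genes. The count lower was 19 of 88 without both mice 304 and 305, beside 2518 of all 16121 genes. MEP and erythroid markers (9 of 9 found) summed to 3758 to 4089 TPM in KO and 4893 to 6015 TPM in WT MEPs, although 5 of the 9 were called higher and 1 lower. Megakaryocyte markers (4 of 4 found) summed to 68.3 to 92.3 TPM in KO and 24.4 to 44.5 TPM in WT MEPs, with 3 called higher. None of these markers averaged 0 TPM in either group, and their part in the result was not tested.

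**Figure D4:**
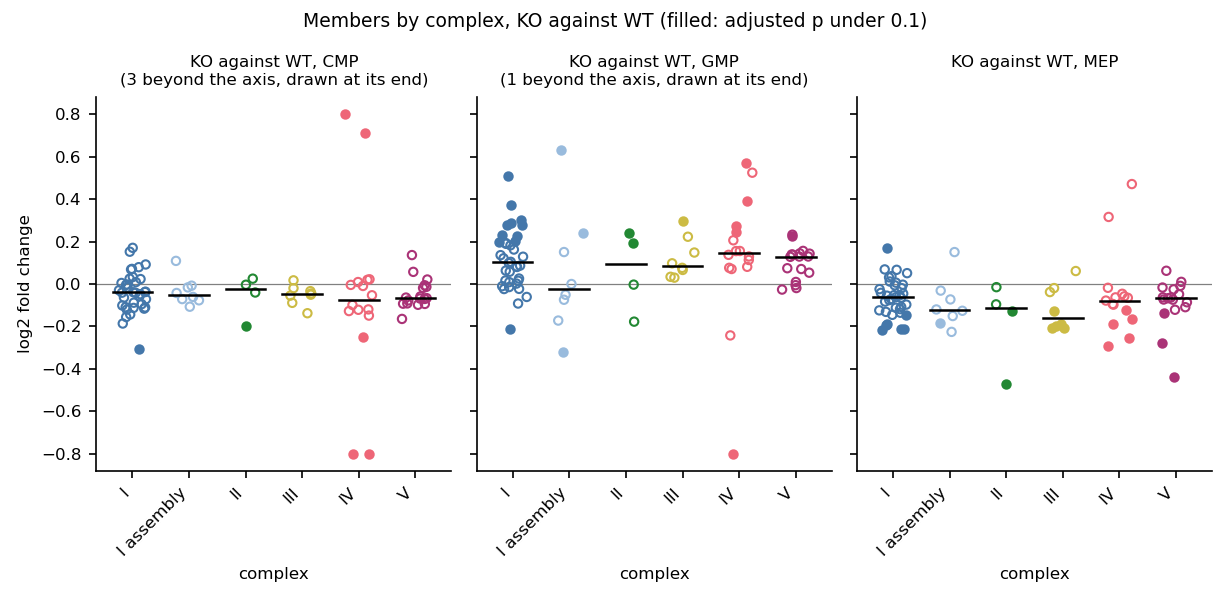
Log2 fold change of KO against WT for each gene by complex in CMPs, GMPs and MEPs, with filled points for adjusted p under 0.1 and bars at the medians. The filled points of MEPs lie below 0 apart from Ndufa5, and those of GMPs lie mostly above 0.

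In GMPs the calls mostly ran the other way. Of 89 genes tested 20 were higher in KO GMPs and 3 lower, beside 17.5% of all 16383 genes called higher and 16.3% called lower. With WT and KO mice paired as they stand side by side in the tables of the study, a replicate block gave 40 genes higher and 5 lower (44.9% and 5.62%), beside 22.7% and 21% of all genes. Deviations of these pairs correlated at 0.53, 0.44 and 0.6 in GMPs. The median log2 fold change was 0.12 (all genes -0.01), but 0.07 without mouse 301 and 0.04 without mouse 305. Complex I held 10 of the higher genes, complex IV 4, assembly factors and complex II 2 each, and complexes III and V 1 each. By library totals 10 of 89 genes were higher and 6 lower, beside 1909 and 4026 of all 16383 genes. The share higher then lay slightly below that of all genes. The median by library totals was 0.02 beside -0.11 for all genes, and 32.2% of the calls over all genes were higher in place of 51.8%. The summed TPM was 17643, 19337 and 21033 in KO GMPs and 18418, 19456 and 21207 in WT GMPs, which overlapped. The mean sum in KO GMPs was 0.982 times that in WT GMPs, and in each side-by-side pair the KO library had the lower sum. The direction in GMPs therefore differed between the summed TPM and the median log2 fold change.

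Ndufaf3, an assembly factor of complex I, had 21.9, 23.8 and 21.9 CPM in KO GMPs and 15.7, 13.8 and 14.1 CPM in WT GMPs. Every KO value lay above every WT value (0.63 ± 0.08, adjusted p = 0.000571). Cox7a2 had 107, 100 and 101 CPM in KO GMPs against 78.8, 61.2 and 67 CPM in WT GMPs (0.57 ± 0.09, adjusted p = 0.0016), while Cox7a2l had 127, 111 and 119 CPM against 160, 122 and 140 CPM with overlap and no call (-0.24 ± 0.10, adjusted p = 0.102). The share of Cox7a2 among its paralogs was 57.2 ± 1.02% in KO and 43.3 ± 0.56% in WT GMPs. Ndufb3 had 61.4, 69.5 and 63.9 CPM in KO GMPs against 46.6, 43.2 and 47.1 CPM in WT GMPs, without overlap (0.51 ± 0.07, adjusted p = 0.000787).

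Cox5a (0.39 ± 0.07, adjusted p = 0.00417), a subunit of complex IV, and Ndufv3 (0.37 ± 0.08, adjusted p = 0.0062), from the NADH-binding arm of complex I, were also higher in KO GMPs. For Cox5a, 47.2% of its 31-base stretches occur in other transcripts. The genes lower in KO GMPs were the assembly factor Ndufaf4 (-0.32 ± 0.07, adjusted p = 0.00678), the complex I subunit Ndufs4 (-0.21 ± 0.08, adjusted p = 0.0823, and from 0.121 to 0.187 without mouse 300, 301, 304 or 308) and Cox4i2, which had 3 to 9 counts in KO and 20 to 39 in WT GMPs (-1.97 ± 0.52, adjusted p = 0.02). The 5 largest rises were also called by library totals, with log2 fold changes from 0.27 for Ndufv3 to 0.53 for Ndufaf3. The count of genes higher was 9 without mouse 301 (10.1%, against 12.8% of all genes), 13 without mouse 305 (14.6% against 15.1%) and 14 without mouse 308 (15.7% against 13.8%). Without both mice 304 and 305 it was 18 of 89, beside 2705 of all 16526 genes.

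Markers moved with genotype in the GMP gate. GMP markers (7 of 7 found) summed to 41757 to 47070 TPM in KO and 31378 to 36925 TPM in WT GMPs, with 6 called higher. Basophil and mast cell markers (4 of 4 found) summed to 116 to 168 TPM in KO and 733 to 1206 TPM in WT GMPs, with all 4 called lower. Neutrophil markers (6 of 6 found) summed to 302 to 1180 TPM in KO and 152 to 332 TPM in WT GMPs, but 2 of the 5 tested were called higher and 2 lower. S100a8 had the largest mean in that list, 428 TPM in KO and 109 TPM in WT GMPs, while Ltf averaged 1.48 and 5.63 TPM. None of them averaged 0 TPM in either group, and their part in the result was not tested.

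**Figure D5:**
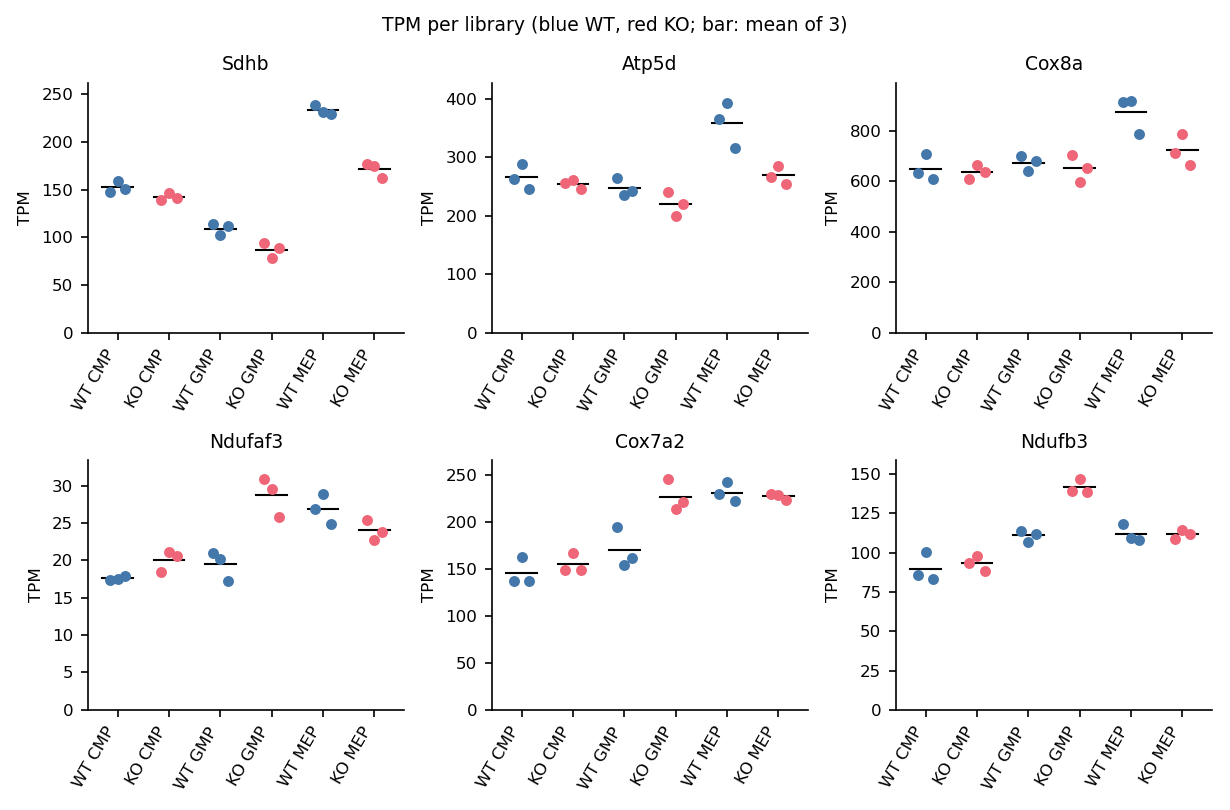
TPM of 6 genes in each progenitor library (blue WT, red KO), with bars at the mean of 3 mice and linear axes from 0. Sdhb, Atp5d and Cox8a are lower in KO than in WT MEPs, where Sdhb has 162 to 177 TPM against 229 to 239 TPM, and Ndufaf3, Cox7a2 and Ndufb3 are higher in KO than in WT GMPs.

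In CMPs few genes were called. Of 89 genes 2 were higher in KO CMPs and 5 lower, beside 10.6% and 12.8% of all 17214 genes called higher and lower. With the pairs as a replicate block, whose deviations correlated at 0.37, 0.57 and 0.4 in CMPs, 3 were higher and 11 lower (3.37% and 12.4%), beside 14.6% and 16.7% of all genes. The median log2 fold change was -0.05 (all genes -0.003), but 0.01 without mouse 305, and from -0.09 to -0.02 without any other single mouse. The summed TPM was 19851, 20042 and 21102 in KO CMPs and 18519, 19049 and 21212 in WT CMPs, which overlapped. The mean sum in KO CMPs was 1.04 times that in WT CMPs. Cox6b2 had 75.7, 71 and 67.9 CPM in KO CMPs and 42, 41.7 and 47.1 CPM in WT CMPs. The groups were apart (0.71 ± 0.07, adjusted p = 0.000318), and Cox6b1 had -0.01 ± 0.06 (adjusted p = 0.951). In MEPs Cox6b2 had 160, 145 and 173 CPM in KO against 129, 103 and 152 CPM in WT, which overlapped, without a call (0.32 ± 0.13, adjusted p = 0.127). Its share of the TPM of both forms was 40 ± 2.4% in KO and 28.7 ± 2.04% in WT CMPs.

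Cox6a2 had 6.21, 4.65 and 15.5 CPM in KO CMPs and 1.29, 1.69 and 2.03 CPM in WT CMPs. The value of mouse 308 stood far above the others, and the log2 fold change of 2.40 ± 0.44 (adjusted p = 0.00586) was 1.71 without that mouse. Itgad, on the opposite strand, had 175 to 388 counts in KO and 26.4 to 34.5 in WT CMPs and was higher by 3.17 ± 0.39 (adjusted p = 0.000856). The genes lower in KO CMPs were Cox4i2 (-1.61 ± 0.30, adjusted p = 0.00661), Cox7a1 at 11 to 13 counts against 22 to 24 (-0.99 ± 0.34, adjusted p = 0.0837), the complex I subunit Ndufb7 (-0.31 ± 0.05, adjusted p = 0.00491), Cox7a2l (-0.25 ± 0.06, adjusted p = 0.0217) and Sdhb. The call for Cox7a1 was lost when any mouse was left out (adjusted p from 0.122 to 0.272). In the same libraries GMP markers (7 of 7 found) summed to 1755 to 2719 TPM in KO and 3958 to 4814 TPM in WT CMPs, with 4 called lower. MEP and erythroid markers (9 of 9 found) summed to 1599 to 1788 TPM and 968 to 1082 TPM, with 8 called higher. Basophil and mast cell markers (4 of 4 found) summed to 62 to 76.6 TPM in KO and 100.5 to 262 TPM in WT CMPs, with 4 called lower, neutrophil markers to 32.8 to 66.4 and 63.1 to 283 TPM, with 4 of 5 tested lower, and megakaryocyte markers to 549 to 565 and 723 to 1057 TPM, with 1 higher and 3 lower. None of these lists held a marker that averaged 0 TPM, and their part in the result was not tested.

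Whether the response differed between populations was tested with an interaction term between genotype and population in 18 libraries, with the mouse as a block. The response in MEPs was lower than that in GMPs in 30 of 89 genes and higher in 1, beside 14.6% and 12.2% of all 18523 genes, with a median difference of -0.19 (all genes 0.01). These 30 comprised 10 genes of complex I, 2 assembly factors, 3 of the 4 genes of complex II, 4 of 8 in complex III, 7 of 16 in complex IV and 4 of 17 in complex V. The largest differences were those of Ndufaf3 (-0.76 ± 0.10, adjusted p = 0.000162), Cox7a2 (-0.63 ± 0.13, adjusted p = 0.00306) and Ndufv3 (-0.59 ± 0.09, adjusted p = 0.000252). Sdhb differed by -0.30 ± 0.09 (adjusted p = 0.0291). By library totals 13 genes were lower and 2 higher, with a median of -0.08 beside 0.12 for all genes. With TMM the count of lower genes, of 89, was 12 without mouse 301, 15 without mouse 305 and 18 without mouse 308. Shares of all genes in these 3 fits are not given here, so whether the excess over them remained cannot be told.

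The response in GMPs exceeded that in CMPs in 12 of 89 genes and fell short of it in 2, beside 10.9% and 10% of all genes. The count higher was 5 without mouse 301 or 305, 6 without mouse 308 and 23 without mouse 300. Shares of all genes without these mice are not given here, so these counts cannot be set against them. Ndufaf3 (0.65 ± 0.10, adjusted p = 0.000795), Cox7a2 (0.58 ± 0.13, adjusted p = 0.00668) and Ndufb3 (0.55 ± 0.10, adjusted p = 0.0022) were first, and the 2 lower were Cox6a2 (-1.82 ± 0.48, adjusted p = 0.0192) and Cox6b2 (-0.48 ± 0.12, adjusted p = 0.0121). Between MEPs and CMPs 1 gene had a higher response in MEPs and 3 a lower one, beside 5.67% and 7.37% of all genes. These were Cox4i2, whose 0 counts in WT MEPs and 0 to 3 in KO MEPs give no usable size, and Cox6a2 (-2.13 ± 0.57, adjusted p = 0.0304), Cox6b2 (-0.38 ± 0.11, adjusted p = 0.0495) and Sdhb (-0.28 ± 0.09, adjusted p = 0.0766). The call for Sdhb was lost without mouse 300, 301, 304, 308 or 309 (adjusted p from 0.103 to 0.272), that for Cox6b2 without mouse 300, 301, 304 or 309 (0.187 to 0.206) and that for Cox6a2 without mouse 300 or 309 (0.146 and 0.188). The 3 tests share libraries pairwise.

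Genes that work with these complexes were taken from lists. From CMPs to MEPs in WT mice, where 34.4% of all genes were higher and 38% lower, all 78 mitochondrial ribosomal proteins were higher (median log2 fold change 0.94), as were all 11 genes of cytochromes and coenzyme Q synthesis (0.87) and 17 of 18 citric acid cycle genes, with 1 lower (0.84). Of 38 assembly factors of complexes II to V 31 were higher and none lower (0.58), and of 81 cytosolic ribosomal proteins 75 were higher and none lower (0.48). Glycolytic enzymes were split, with 6 of 18 higher and 9 lower (-0.22). Among 20 regulators of mitochondrial biogenesis 13 were higher and 4 lower. Tfam, which packages mitochondrial DNA, rose by 0.65 ± 0.06 (adjusted p = 2.11e-05) and the coactivator Pprc1 by 0.93 ± 0.05 (adjusted p = 7.39e-07), whereas Gabpb1, a subunit of GABP, fell by 1.05 ± 0.07 (adjusted p = 2.03e-06) and Yy1 by 0.13 ± 0.05 (adjusted p = 0.0552).

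The same lists were counted under loss of ARID1A, beside 17.5% of all genes higher and 16.3% lower in KO GMPs, 14% and 15.4% in KO MEPs, and 10.6% and 12.8% in KO CMPs. Of the glycolytic enzymes 12 of 18 were higher and 3 lower in KO GMPs (median 0.31), 3 higher and 11 lower in KO MEPs (-0.28), and 4 higher and 9 lower in KO CMPs (-0.20). Eno1, or enolase, rose by 0.52 ± 0.08 in KO GMPs (adjusted p = 0.00115) and fell by 0.28 ± 0.06 in KO MEPs (adjusted p = 0.011). Cytosolic ribosomal proteins were lower in 57 of 81 genes in KO CMPs (median -0.19) and in 60 of 81 in KO MEPs (-0.19), with none higher, and in 7 of 81 in KO GMPs. Mitochondrial ribosomal proteins had 14 higher and 1 lower of 78 in KO GMPs, 8 higher and 12 lower in KO MEPs, and 2 higher and none lower in KO CMPs. Their shares higher in KO GMPs (17.9%) and lower in KO MEPs (15.4%) lay at those of all genes. Cytochrome and coenzyme Q genes had 4 of 11 lower in KO MEPs, among them Coq3 (-0.33 ± 0.06, adjusted p = 0.00837), which methylates the coenzyme Q ring, and 2 of 11 higher in KO GMPs. Citric acid cycle genes had 4 of 18 lower in KO MEPs and 3 higher and 1 lower in KO GMPs, and 2 were lower in KO CMPs. Assembly factors of complexes II to V had 5 higher and 8 lower of 37 in KO MEPs, 5 higher and 1 lower of 38 in KO GMPs, and none called of 37 in KO CMPs. Of the biogenesis regulators Esrra, a nuclear receptor, fell by 0.52 ± 0.07 in KO MEPs (adjusted p = 0.00162) and by 0.34 ± 0.07 in KO CMPs (adjusted p = 0.00791).

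The remaining members were hardly detected. Cox7b2, Cox8b, Cox8c, Ndufa4l2 and a second gene record named Atp5o had at most 17 counts in any library, and 94% of the 31-base stretches of that Atp5o record occur in other transcripts. Of the 94 genes 18 share over 20% of their 31-base stretches with other transcripts, so that their estimated counts depend on how shared fragments were split, and 32 overlap a gene on the opposite strand.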

How the data were processed

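The authors pseudo-aligned paired-end reads of 22 libraries to Ensembl 84 mouse transcripts (GRCm38) with kallisto 0.43.1 and deposited estimated counts and TPM per transcript, in which shared fragments are split between transcripts. The deposited TPM values are scaled by kallisto's effective transcript lengths. The methods name tximport and DESeq2 1.18.1. Transcripts were paired with GENCODE vM21, which held 114200 of 115088 (99.2%). For each gene the estimated counts of its transcripts were added up and rounded to whole numbers, and TPM likewise added up. Short genes (median effective length 523 bases here, 2003 over tested genes) take fewer fragments at a given level, so levels are compared between genes only as TPM.

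Groups came from the labels. KO was compared with WT in each population, without a block, using edgeR 4.0.16 (TMM, filterByExpr, quasi-likelihood test, Benjamini-Hochberg adjustment over all genes tested) in R 4.3.3. WT populations and interactions were fitted with the mouse as a block, since each mouse gave all 3 populations. Calls have an adjusted p under 0.1, a standard error is the absolute log2 fold change over the root of the F statistic, and CPM use TMM scaling. WT population values are scaled over 9 libraries and KO comparisons over those of 1 population, so CPM of a library differ slightly between them. The fits were tested on simulated counts.

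The members and lists were chosen with earlier results of these data known. Genes named are the called genes without overlap with the largest changes (up to 5 each way for KO, 3 for WT populations, 3 for interactions), core subunits and paralogs, and Esrra, Coq3, Eno1, Tfam, Pprc1, Gabpb1, Yy1, S100a8, Ltf and the genes on the opposite strand were chosen after their values were seen. Other settings tried were no low-count filter, RLE size factors (the median of ratios), transcript length offsets, DESeq2 1.42.0, the block, each mouse left out, library totals without TMM, and both mice 304 and 305 left out. Depth ran from 40804031 to 65930737 estimated counts, and both ends of that range were LT-HSC libraries. Median standard errors for these genes were 0.0535 to 0.08 on the log2 scale in the KO comparisons of progenitors. In LT-HSCs, with 2 mice per genotype, the median was 0.321. Columns of the deposited tables other than these were not needed, and no sample was left out.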

Additional observations from a re-analysis of the deposited data

Results flagged for a closer look

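Each result here stands apart because the effect of KO differed between 2 populations of the same mice, tested as an interaction (edgeR, Benjamini-Hochberg over all genes). Against the effect in CMPs, the effect in GMPs was higher by 0.65 on the log2 scale for Ndufaf3, by 0.58 for Cox7a2 and by 0.55 for Ndufb3, and differed by -1.82 for Cox6a2 and by -0.48 for Cox6b2. Itgad, on the opposite strand from Cox6a2, had a difference of -3.72 ± 0.54 (SE, adjusted p = 0.000411). Within GMPs, KO against WT, Itgad had -0.56 ± 0.50 (adjusted p = 0.470) and Cox6a2 0.52 ± 0.41 (adjusted p = 0.405), neither of them called. What Itgad adds to the value of Cox6a2 was not tested. In annotated transcripts 6.15% of the 31-base stretches of Cox6a2 occur in Itgad.

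Against the effect in CMPs, the effect in MEPs differed by -2.13 for Cox6a2, by -0.38 for Cox6b2 and by -0.28 for Sdhb. Itgad had -1.01 ± 1.14 (adjusted p = 0.698) in that comparison. Fitted differences for Cox4i2 were 5.18 against CMPs and 5.48 against GMPs, but with 0 counts in every WT MEP library and 0 to 3 in KO MEPs they depend on the prior count and give no size, and the call against GMPs was lost without mouse 304 (adjusted p = 0.224).

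Against the effect in GMPs, the effect in MEPs differed by -0.76 for Ndufaf3, by -0.63 for Cox7a2 and by -0.59 for Ndufv3.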

How the results depend on the processing

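For the genes named in the report, 502 alternative values kept their direction and their side of the threshold, 62 kept the direction but lost the call, and none reversed. Leaving out each mouse gave these numbers of genes higher and lower in KO mice: LT-HSCs 0 to 44 and 0 to 0, CMPs 2 to 4 and 3 to 4, GMPs 9 to 25 and 2 to 5, and MEPs 0 to 2 and 5 to 18. For WT populations it gave 9 to 74 and 4 to 5 in GMPs against CMPs, 83 to 85 and 2 to 3 in MEPs against CMPs, and 76 to 80 and 1 to 3 in MEPs against GMPs. For differences between effects it gave 5 to 23 and 2 to 4 (GMPs less CMPs), 0 to 1 and 0 to 6 (MEPs less CMPs), and 0 to 2 and 12 to 31 (MEPs less GMPs). With 2 LT-HSC mice per genotype, the lone library left is assumed to vary like the other group.

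The replicate block for KO comparisons paired WT and KO mice that stand side by side in the study's tables. Deviations of such pairs correlated at 0.37 to 0.6 in CMPs and GMPs. In MEPs they correlated at 0.52 for mice 305 and 304 and at 0.43 for mice 309 and 308. For mice 300 and 301 the value in MEPs was 0.02, and mouse 300 correlated better with mouse 308 (0.33). Controls in the study were littermates of the same sex, but the labels do not say which mice belong together. The order of the mice was not taken as a pairing in every population, and the block stayed an alternative. Under this replicate block 11 genes were lower in KO CMPs, and 40 were higher and 5 lower in KO GMPs. In KO MEPs 2 of 88 genes were then higher and 24 lower, beside 2532 and 2729 of all 15777 genes. The 23 genes called in GMPs without the block were all called with it. Without the mouse block 1 gene was lower in GMPs less CMPs and 1 lower in MEPs less CMPs.

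Median-of-ratios size factors gave 5 lower genes in KO GMPs, as did DESeq2. In KO MEPs 2 genes were higher and 22 lower with DESeq2, and 2 higher and 17 lower with no filter on low counts. The length offset gave 13 higher genes of 89 in KO GMPs, beside 2358 of all 16383 genes. It gave 0 higher and 17 lower in KO MEPs and 7 higher in GMPs less CMPs. Library totals without TMM, added after seeing the data, gave 10 higher and 6 lower genes in KO GMPs, 12 higher in WT GMPs against CMPs, 6 higher and 5 lower in GMPs less CMPs, 5 lower in MEPs less CMPs, and 2 higher and 13 lower in MEPs less GMPs. The share of calls over all genes that were higher was then 27.8% in WT GMPs against CMPs, 27% in GMPs less CMPs and 64.7% in MEPs less GMPs. Leaving out both mice 304 and 305, also added later, gave 5 lower genes in KO GMPs, 7 higher in GMPs less CMPs, 0 higher and 5 lower in MEPs less CMPs, and 0 higher in MEPs less GMPs. The causes of these shifts were not tested. DESeq2 was not run for differences between effects. Low counts limit Cox4i2, Cox6a2 and Cox7a1.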
